A study of Mus musculus with 8 samples.

Results

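The genes that build, load and release extracellular vesicles were examined in cultured mouse pancreatic cancer cells in which the microRNA miR-27a-3p was inhibited. They were 38 genes chosen by symbol from the 24419 gene symbols of the count table: 6 tetraspanins, 18 genes of the ESCRT machinery, 10 genes of the Rab and SNARE release step, and 4 adaptor or membrane microdomain genes. All 38 were listed and 36 passed the filter on low counts. Messenger RNA of KPCY cells, male per the labels, was measured in 4 libraries of cells stably transduced with a lentivirus that inhibits miR-27a-3p (the knockdown) and 4 libraries of cells transduced with a scrambled sequence. Both populations went through selection with puromycin at 2 µg/mL for 7 days, both grew with 10% serum and 4.5 g/L glucose, and RNA was taken 24 hours after seeding. The labels call the libraries biological replicates and describe 1 transduced, selected population per group. The p-values therefore measure the spread between cultures of these populations and not between transductions, and population and inhibitor cannot be told apart. In such bulk samples fewer expressing cells and less RNA per cell cannot be told apart either.

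Extracellular vesicles called exosomes form when the membrane of a late endosome buds inward, and they leave the cell when that endosome fuses with the plasma membrane. Tetraspanins are 4-pass membrane proteins that organise patches of membrane and are the usual surface markers of such vesicles. ESCRT-0 gathers ubiquitinated cargo, ESCRT-I and ESCRT-II shape the bud, ESCRT-III filaments cut its neck, and the VPS4 ATPases take the filaments apart. A second route joins syndecans to ESCRT-III through syntenin and ALIX. Rab GTPases then move and dock the endosome, and SNARE proteins fuse it.

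Library totals were 19165513 to 23542275 counts. Levels are given as TMM-scaled CPM, counts relative to the library total. A gene with 0 counts could still have 3, that is 0.127 to 0.157 CPM before TMM scaling, depending on the library, for counting error only. Scrambled replicate 2 stood apart from the other scrambled libraries (chi-square per gene 5.19 to 5.36 in its pairs, 1.73 to 2.35 in the other pairs within groups). Without it 13 members were called higher and 11 lower, where all libraries gave 12 and 10. The 8 epithelial and ductal markers summed to 10826 to 11791 CPM in scrambled and 11521 to 11849 CPM in knockdown libraries. Keratins dominated that sum, with scrambled means of 2038 (Krt7) to 3252 CPM (Krt8), while Epcam averaged 7.15 CPM in scrambled and 5.62 CPM in knockdown libraries. Krt7, Krt18, Cdh1 and Muc1 were called higher, Krt19 and Sox9 lower, and Krt8 and Epcam in neither direction. Markers of fibroblasts (8 genes, 5 at 0 in every library) summed to at most 1.43 CPM, those of endothelium (5 genes) to at most 1.2, those of acinar cells (6 genes, 3 at 0) to at most 3.98 and those of leukocytes (7 genes, 3 at 0, among them Adgre1 and Lyz2) to at most 4.4 CPM in any library. Mature microRNAs are not captured in such libraries, so the level of miR-27a itself is not known from them.

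The inhibited microRNA is printed first, since a rise of a gene that it represses is what its inhibition is meant to produce. The capitals mark its seed, bases 2 to 8, which pairs with messages. The related mmu-miR-27b-3p has the same seed, so every match given here is equally a match to miR-27b.
mmu-miR-27a-3p: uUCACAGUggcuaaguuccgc
GENCODE 3′ UTRs, the longest of every gene, were searched for 3 kinds of match to that seed, ACTGTGAA (8mer), ACTGTGA (7mer-m8) and CTGTGAA (7mer-A1), on the message strand. A match was present in 10 of the 36 tested members (27.8%), beside 29.5% of the 11376 tested genes with an annotated 3′ UTR. An 8mer was present in 2 members (5.56%, beside 6.42% of all). The 8mer and 7mer-m8 matches are shown with the bases before them and the match in capitals, because these 4 members include both genes with the longest match.
Chmp4c, 8mer: ataggactcagtgaACTGTGAA
Tspan8, 8mer: attcactgtatttaACTGTGAA
Sdcbp, 7mer-m8: cctgcatcagtccttACTGTGA
Rab27a, 7mer-m8: agatcggattgactcACTGTGA
Positions are on GRCm38, each within the 3′ UTR. The Chmp4c site lies at chr3:10394810-10394831 on the plus strand. The Tspan8 site lies at chr10:115849532-115849553 on the plus strand. The Sdcbp site lies at chr4:6395672-6395693 on the plus strand. The Rab27a site lies at chr9:73096039-73096060 on the plus strand. Both members with an 8mer were called higher in the knockdown, Chmp4c 1.26-fold and Tspan8 1.14-fold, beside 23.8% of all tested genes called higher. The share called higher among all tested genes with an 8mer was not counted, so these 2 genes are a description only. Sdcbp was called lower and Rab27a was called in neither direction. Of the 10 members with any match 4 were called higher and 3 lower, with a median log2 fold change of 0.05. Of the 26 without a match 8 were called higher and 7 lower, with a median of −0.01. Over all tested genes 23.8% were called higher and 24.1% lower. Calls among all tested genes with a match were not counted, so these counts too are a description only. A match is a stretch of letters and no evidence of binding.

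Across all members the changes were small and went both ways. With edgeR's quasi-likelihood test and an adjusted p under 0.05 over all 11797 tested genes, 12 of 36 members were called higher in the knockdown and 10 lower, and 14 were called in neither direction. That is 61.1% of members called, beside 47.9% of all tested genes (23.8% higher and 24.1% lower). The median absolute log2 fold change was 0.12 in members and 0.13 over all tested genes. The furthest member, Chmp4c, reached 0.34. A fold of at least 1.2 was reached by 5 called members, beside 19.9% of all tested genes. On GRCm38 these are Chmp4c (chr3:10366907-10428856), Chmp1a (chr8:123204264-123212763), Vps37b (chr5:124004641-124032270), Chmp6 (chr11:119913441-119919548) and Cd81 (chr7:143052739-143067934). The libraries of the groups did not overlap for 19 members, 10 with the knockdown above and 9 with it below, beside 42.2% of all tested genes. The plot of fold changes shows each member with its standard error.

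**Figure D1:**
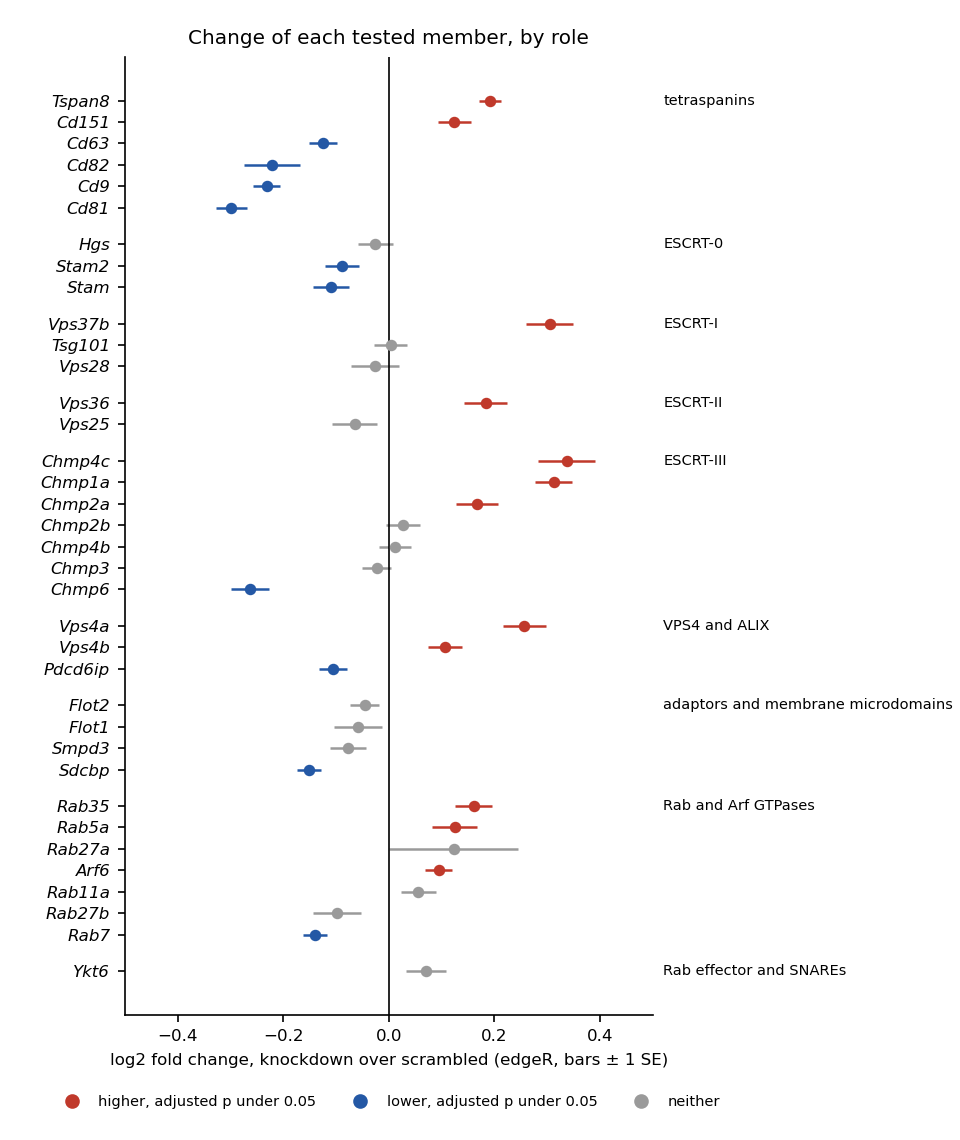
Log2 fold change, knockdown over scrambled, of the 36 tested members grouped by role (points, edgeR estimate; bars, ± 1 SE; colour, call at an adjusted p under 0.05). Cd9, Cd63, Cd81 and Cd82 lie left of 0 and Tspan8 and Cd151 right of it, and the changes range from −0.30 for Cd81 to 0.34 for Chmp4c.

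All 6 tetraspanins were called, 4 lower and 2 higher in the knockdown, beside 47.9% of all tested genes called. Of the tested tetraspanins of the wider list 73.3% were called. The 3 classical vesicle markers Cd9, Cd63 and Cd81 fell, and Cd82 (a metastasis suppressor) fell too. Cd151, a partner of laminin-binding integrins, and Tspan8, a tetraspanin abundant in digestive epithelia and their tumours, rose. Cd81 stood at 149, 147, 157 and 151 CPM in scrambled replicates 1 to 4 and at 123, 122, 127 and 119 CPM in knockdown replicates 1 to 4. Every knockdown library lay below every scrambled one. Its level was 123 ± 3.30 against 151 ± 4.12 CPM (SD, n = 4), a log2 fold change of −0.30 (SE 0.0299, edgeR adjusted p = 2.82e-08). Cd9 stood at 379, 393, 393 and 381 CPM in the scrambled libraries and at 345, 321, 326 and 325 CPM in the knockdown libraries. The groups did not overlap, and knockdown replicate 1 was the closest to the scrambled level. Its log2 fold change was −0.23 (SE 0.0255, edgeR adjusted p = 1.20e-07). Cd63, which sits mainly in late endosomes and lysosomes, read 193, 188, 194 and 189.8 CPM in scrambled and 179, 175, 169 and 179 CPM in knockdown libraries. It fell by 0.12 on the log2 scale (SE 0.0270, edgeR adjusted p = 0.000585), the smallest fall of the 4. Of the words of read length in its transcripts, 8.95% also occur in other annotated genes, first among them the pseudogene Cd63-ps, so its count is less certain.

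Tspan8 had the highest level per length of all members. It read 662, 656, 667 and 666 CPM in scrambled and 757, 766, 764 and 742 CPM in knockdown libraries, so that the groups were wide apart relative to their spread. Its log2 fold change was 0.19 (SE 0.0204, edgeR adjusted p = 6.94e-08). Cd151 rose by 0.12 on the log2 scale to 191 ± 6.75 from 176 ± 7.00 CPM (adjusted p = 0.00238), with knockdown replicate 2 above the other 3. Cd82 fell by 0.22 to 35.4 ± 2.32 from 41.3 ± 2.42 CPM (adjusted p = 0.00165), and its groups overlapped by a single library pair. Summed over the 6 genes the tetraspanin level was 1612 ± 18.1 CPM in the knockdown and 1609 ± 10.4 CPM in scrambled libraries. Per length the sum was 778 ± 9.03 against 760.8 ± 4.55 RPKM (CPM per kilobase of exon), 2.26% higher. The makeup of that sum differed. On the same scale, Tspan8 made 57.2 ± 0.488% of the summed tetraspanin level in the knockdown and 51.2 ± 0.472% in scrambled libraries. The share of Cd9 was 20.7 ± 0.573% against 24.9 ± 0.364%, and that of Cd81 5.49 ± 0.127% against 6.90 ± 0.163% (SD, n = 4, given as a description without a test). The ratio of Tspan8 to Cd9 per length was 2.64 to 2.86 in the knockdown and 2.00 to 2.10 in scrambled libraries.

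Among the member tetraspanins Cd81 and Cd9 fell most and Tspan8 rose most, and their promoters are printed for comparison. Some tetraspanins of the wider list, such as Tspan4 (−0.32) and Tspan12 (0.33), moved further on the log2 scale. Sequences are RefSeq windows of GRCm38.p6 of 300 bases each, placed around the start site that RefSeq gives. Capitals mark GGGCGG (a GC box), CACGTG (an E-box) and TATAAA on either strand.
Cd9: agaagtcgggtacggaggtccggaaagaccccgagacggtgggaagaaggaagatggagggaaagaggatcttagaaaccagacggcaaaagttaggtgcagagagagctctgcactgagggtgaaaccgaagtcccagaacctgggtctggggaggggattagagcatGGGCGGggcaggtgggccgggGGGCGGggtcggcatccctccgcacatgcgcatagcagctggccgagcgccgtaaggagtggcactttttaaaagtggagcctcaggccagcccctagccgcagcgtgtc
Cd81: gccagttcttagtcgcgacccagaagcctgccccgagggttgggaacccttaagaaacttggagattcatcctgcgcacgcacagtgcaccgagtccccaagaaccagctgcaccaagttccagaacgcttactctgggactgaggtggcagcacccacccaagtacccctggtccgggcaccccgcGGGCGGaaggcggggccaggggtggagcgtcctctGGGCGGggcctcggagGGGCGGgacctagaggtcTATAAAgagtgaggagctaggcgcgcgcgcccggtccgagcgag
Tspan8: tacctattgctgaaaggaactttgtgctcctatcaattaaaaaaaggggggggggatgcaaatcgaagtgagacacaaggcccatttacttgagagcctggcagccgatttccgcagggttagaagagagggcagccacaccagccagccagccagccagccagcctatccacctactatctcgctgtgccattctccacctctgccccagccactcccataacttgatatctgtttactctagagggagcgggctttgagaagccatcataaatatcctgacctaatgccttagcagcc
The Cd9 window is chr6:125494711-125495010 on the minus strand. The Cd81 window is chr7:143052500-143052799 on the plus strand. The Tspan8 window is chr10:115817034-115817333 on the plus strand. The Cd9 window holds 2 GC boxes and 18 CpG pairs, and the Cd81 window 3 GC boxes, 1 TATAAA and 23 CpG pairs. The Tspan8 window holds none of the 3 motifs and 5 CpG pairs. This contrast does not follow the direction of change in the other member tetraspanins. The window of Cd63, which fell, holds none of the 3 motifs and 6 CpG pairs. Cd151, which rose, has a window with 2 GC boxes and 20 CpG pairs and another with 0 and 4. The windows of Cd82, which fell, hold 0 to 2 GC boxes and 4 to 16 CpG pairs. GENCODE also places a start of Tspan8 further upstream, at chr10:115816832, outside the printed window, and bases there were not searched. RefSeq windows were found for 28 members, 35 windows in all. GGGCGG was in 20 of the 35, beside 35.66% of 32851 windows of the same length. CACGTG was in 3, 1 each of Rab27a, Pdcd6ip and Rab5a, beside 7.15% of all, and TATAAA in 2, beside 13.62%. These are matches of letters and show nothing of which factor is bound.

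**Figure D2:**
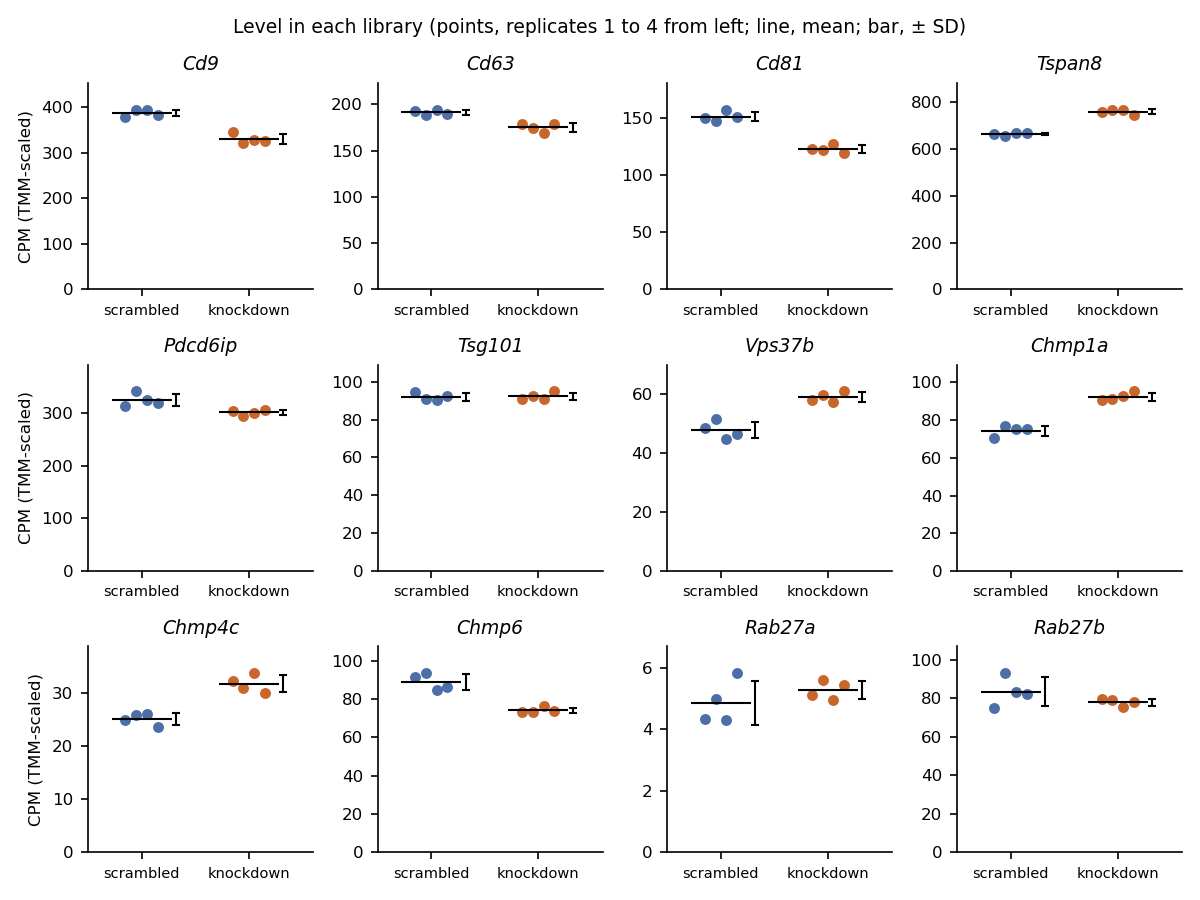
CPM in each of the 4 scrambled and 4 knockdown libraries for 12 members (points, replicates 1 to 4 from left to right; line, mean; bar, ± SD; axes from 0). Cd9, Cd63, Cd81, Pdcd6ip and Chmp6 are lower in every knockdown library than in any scrambled one, Tspan8, Vps37b, Chmp1a and Chmp4c are higher, and Tsg101, Rab27a and Rab27b overlap.

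In the ESCRT machinery 11 of 18 genes were called, 7 higher and 4 lower. That is 61.1% called, beside 47.9% of all tested genes. The rises were Vps37b of ESCRT-I, Vps36 of ESCRT-II, Chmp1a, Chmp2a and Chmp4c of ESCRT-III and both VPS4 ATPases. The falls were Stam and Stam2 of ESCRT-0, Chmp6 of ESCRT-III and Pdcd6ip, which encodes ALIX. The median log2 fold change of the 18 was 0.01.

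ESCRT-0 binds ubiquitinated cargo through Hgs and its partners Stam and Stam2. Hgs read 114 ± 5.01 CPM in scrambled and 112 ± 1.54 CPM in knockdown libraries (log2 fold change −0.03, SE 0.0326, adjusted p = 0.549). Stam fell by 0.11 to 81.3 ± 2.67 from 87.7 ± 1.41 CPM (adjusted p = 0.00976). Stam2 fell by 0.09 to 78.7 ± 1.42 from 83.7 ± 0.733 CPM (edgeR adjusted p = 0.0275), and this call was not stable. Its adjusted p was 0.0814 with upper-quartile factors, 0.115 with library totals alone, 0.0502 without a filter, 0.0546 in DESeq2, and 0.0616, 0.0745 and 0.0707 without scrambled replicate 4, knockdown replicate 1 and knockdown replicate 4.

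Tsg101, the ESCRT-I subunit that is often used as a vesicle marker, read 94.8, 90.9, 90.2 and 92.7 CPM in scrambled and 91.1, 92.5, 90.8 and 94.9 CPM in knockdown libraries. The groups overlapped (log2 fold change 0.0033, SE 0.0318, adjusted p = 0.941). Of the words of read length in Tsg101 transcripts 15.7% also occur in the pseudogene Tsg101-ps, so its count is less certain. Its partner Vps28 did not pass the test either, with 47.4 ± 3.19 against 48.2 ± 0.256 CPM. Vps37b, a subunit that completes the ESCRT-I stalk, read 48.3, 51.4, 44.7 and 46.3 CPM in scrambled and 57.7, 59.5, 57.3 and 60.8 CPM in knockdown libraries. Its knockdown libraries were all above the scrambled ones, at a log2 fold change of 0.30 (SE 0.0443, edgeR adjusted p = 6.10e-06). It shares 918 exon bases with Hip1r on the opposite strand, whose log2 fold change was 0.13, and the strand setting of the counting is not given in the sources used here. The part of Hip1r reads in the Vps37b count was not tested.

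ESCRT-II links the earlier complexes to ESCRT-III. Its subunit Vps36 rose by 0.18 on the log2 scale to 63.7 ± 2.49 from 56.1 ± 1.96 CPM (adjusted p = 0.000686), while Vps25 read 56.4 ± 1.74 against 59.0 ± 3.04 CPM (adjusted p = 0.216). Vps25 shares 1103 of its 1642 annotated exon bases with Ramp2, which read 0.195 and 0.378 CPM on average in knockdown and scrambled libraries.

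Within the ESCRT machinery, ESCRT-III held the furthest rise and the furthest fall. Chmp4c, the CHMP4 form of the abscission checkpoint in cell division, read 24.9, 25.9, 25.97 and 23.6 CPM in scrambled and 32.2, 31.0, 33.8 and 30.1 CPM in knockdown libraries. The groups did not overlap, and the log2 fold change was 0.34 (SE 0.0545, edgeR adjusted p = 2.32e-05). Its near relative Chmp4b, the main filament former, read 185 ± 1.97 against 184 ± 9.20 CPM. Per length, Chmp4c stood at 0.0331 to 0.0363 of Chmp4b in the knockdown and at 0.0260 to 0.0299 in scrambled libraries. Chmp1a, which recruits VPS4, read 70.4, 76.9, 75.1 and 75.1 CPM in scrambled and 90.5, 91.1, 92.5 and 95.2 CPM in knockdown libraries. Its log2 fold change was 0.31 (SE 0.0349, edgeR adjusted p = 1.46e-07) with no overlap, and 5.63% of the words of read length in its transcripts also occur in the pseudogene Gm8515. Chmp6, which starts the filament on ESCRT-II, went the other way, from 91.2, 93.6, 84.9 and 86.4 CPM in scrambled to 73.3, 73.2, 76.2 and 73.8 CPM in knockdown libraries. It fell by 0.26 on the log2 scale (SE 0.0365, edgeR adjusted p = 3.14e-06). Chmp2a rose by 0.17 to 62.6 ± 1.82 from 55.8 ± 2.04 CPM (adjusted p = 0.00134), while Chmp2b and Chmp3 stayed within ± 0.03 on the log2 scale and did not pass the test.

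The VPS4 ATPases that recycle ESCRT-III both rose. Vps4a went to 51.3 ± 1.43 from 43.0 ± 0.613 CPM (log2 fold change 0.26, adjusted p = 1.74e-05) and Vps4b to 117 ± 2.86 from 109 ± 4.30 CPM (0.11, adjusted p = 0.0101). Per length of merged exons Vps4a came to 1.503 to 1.57 times Vps4b in the knockdown and 1.31 to 1.45 times in scrambled libraries. In CPM Vps4b was the higher, so which of the pair is higher rests on these annotated lengths, 2522 bases for Vps4a and 8905 for Vps4b. Pdcd6ip, or ALIX, which bridges syntenin or Tsg101 to ESCRT-III, read 314, 341, 324 and 318 CPM in scrambled and 304, 295, 300.5 and 307 CPM in knockdown libraries. All knockdown libraries were below the scrambled ones, by 0.11 on the log2 scale (−0.11, SE 0.0265, edgeR adjusted p = 0.00207).

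Of the 4 adaptor and microdomain genes (25.0% called, beside 47.9% of all tested genes), Sdcbp passed the test. It encodes syntenin, the PDZ protein that ties syndecans and Cd63 to ALIX, and read 338, 346, 341 and 334 CPM in scrambled and 304, 301, 308 and 312 CPM in knockdown libraries. The groups did not overlap (log2 fold change −0.15, SE 0.0231, edgeR adjusted p = 1.23e-05). Syntenin, ALIX and Cd63 messages were thus each lower in all 4 knockdown libraries, by 0.11 to 0.15 on the log2 scale. Other genes tied to the same route did not all fall. Arf6, which acts with syntenin, and the syndecans Sdc1, Sdc3 and Sdc2, the last at a very low level, were called higher. Sdc4 was called lower and Chmp4b of ESCRT-III in neither direction. The flotillins, scaffolds of membrane microdomains, read 59.2 ± 4.25 against 61.6 ± 1.18 CPM for Flot1 and 149 ± 4.03 against 154 ± 2.16 CPM for Flot2, and neither passed. Smpd3, the neutral sphingomyelinase that makes ceramide for ESCRT-independent budding, read 159 ± 4.35 against 167 ± 8.64 CPM (log2 fold change −0.08, edgeR adjusted p = 0.0617). Without scrambled replicate 2 the adjusted p was 0.0191, without scrambled replicate 4 it was 0.00727, without a filter 0.0358 and with the replicate block 0.0370, and over all alternatives it ran from 0.00727 to 0.219. Smpd3 shares 247 exon bases with Prmt7 on the opposite strand, which was called higher (0.21).

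Among the release genes, 4 of the 8 tested members were called, 3 higher and 1 lower. The Rab27 pair that docks multivesicular endosomes at the plasma membrane was not called. Rab27a was scarce, with 4.32, 4.98, 4.29 and 5.82 CPM in scrambled and 5.12, 5.59, 4.95 and 5.42 CPM in knockdown libraries, 89 to 120 counts each. The groups overlapped, and the SE of its log2 fold change of 0.12 was 0.122, so that a change of the size found in most called members was not detectable at this depth. Rab27b read 75.2, 93.2, 83.4 and 82.3 CPM in scrambled and 79.5, 78.9, 75.5 and 78.1 CPM in knockdown libraries, where scrambled replicate 2 was the highest and replicate 1 the lowest of the 8. Its log2 fold change was −0.10 (SE 0.0463, edgeR adjusted p = 0.0861). Without scrambled replicate 1 that adjusted p became 0.00907, without a filter 0.0347, and over all alternatives it ran up to 0.348. Per length Rab27a stood at 0.177 to 0.195 of Rab27b in the knockdown and 0.141 to 0.195 in scrambled libraries.

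Of the endosomal GTPases Rab7 fell, and Rab5a, Rab35 and Arf6 rose. Rab7, which marks late endosomes and directs them to lysosomes, fell by 0.14 on the log2 scale to 381 ± 8.58 from 419.8 ± 5.96 CPM (adjusted p = 3.11e-05). Of the words of read length in its transcripts 10.0% also occur in the pseudogene Rab7-ps1, so its count is less certain. Rab35, a recycling Rab linked to vesicle docking, rose by 0.16 to 89.0 ± 2.10 from 79.6 ± 2.77 CPM (adjusted p = 0.00055). Arf6, a GTPase of the plasma membrane that acts with syntenin, rose by 0.09 to 325 ± 2.28 from 304 ± 10.8 CPM (adjusted p = 0.00427). Rab5a, of early endosomes, rose by 0.13 to 74.8 ± 3.45 from 68.6 ± 3.92 CPM (edgeR adjusted p = 0.0196), but its groups overlapped. Its adjusted p was 0.0920 without scrambled replicate 1, 0.0583 without knockdown replicate 1 and 0.0929 without knockdown replicate 4. Rab11a, of recycling endosomes, read 134 ± 3.16 against 129 ± 6.37 CPM (edgeR adjusted p = 0.175). Over its alternatives the adjusted p ran from 0.0471, with library totals alone, to 0.532.

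The SNARE Ykt6 read 135 ± 4.01 against 128 ± 8.32 CPM (edgeR adjusted p = 0.126). Leaving out scrambled replicate 2, its highest scrambled library, gave 0.000768, library totals alone gave 0.0382, and the alternatives ran up to 0.359. Sytl4, a Rab27 effector also known as granuphilin, had 0, 1, 0 and 0 counts in scrambled and 5, 1, 0 and 7 counts in knockdown libraries and did not pass the filter. Without a filter it was called higher (edgeR adjusted p = 0.0177), on 13 counts in all in the knockdown and with overlapping groups. Vamp7, a SNARE of lysosomes and late endosomes, was listed at 0 in every library. GENCODE places it on the unplaced scaffold GL456233.1 of GRCm38, and all 8 genes of the table that are annotated on such scaffolds alone had 0 counts in every library. A level of Vamp7 can therefore not be read from these counts.

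Per length the members spanned a wide range. In RPKM, which divides the CPM by the kilobases of merged exons, scrambled libraries gave 389.5 ± 3.00 for Tspan8, 198 ± 7.07 for Arf6, 189 ± 3.69 for Cd9, 161 ± 2.28 for Rab7 and 90.8 ± 4.54 for Chmp4b (SD, n = 4), the 5 highest in that order. Arf6 and Cd9 lay close together in scrambled libraries, and in the knockdown they were 212 ± 1.48 and 161 ± 5.14. Cd81 and Cd63 stood side by side at 52.5 ± 1.43 and 51.9 ± 0.753 in scrambled libraries, within their spread, and at 42.7 ± 1.146 and 47.6 ± 1.32 in the knockdown. The lowest tested members were Rab27b at 7.82 ± 0.692, Chmp4c at 2.49 ± 0.109 and Rab27a at 1.25 ± 0.186. These lengths merge the exons of all annotated transcripts, so the values and the order of genes per length depend on the annotation. They are 10087 bases for Chmp4c and 10679 for Rab27b, with longest 3′ UTRs of 5364 and 6057 bases, and the low values of these 2 genes depend on them. For Cd63 the length is 3682 bases with a longest 3′ UTR of 82, and for Vps4b 8905 with 3017. How close Cd63 and Cd81 lie therefore rests on these lengths.

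**Figure D3:**
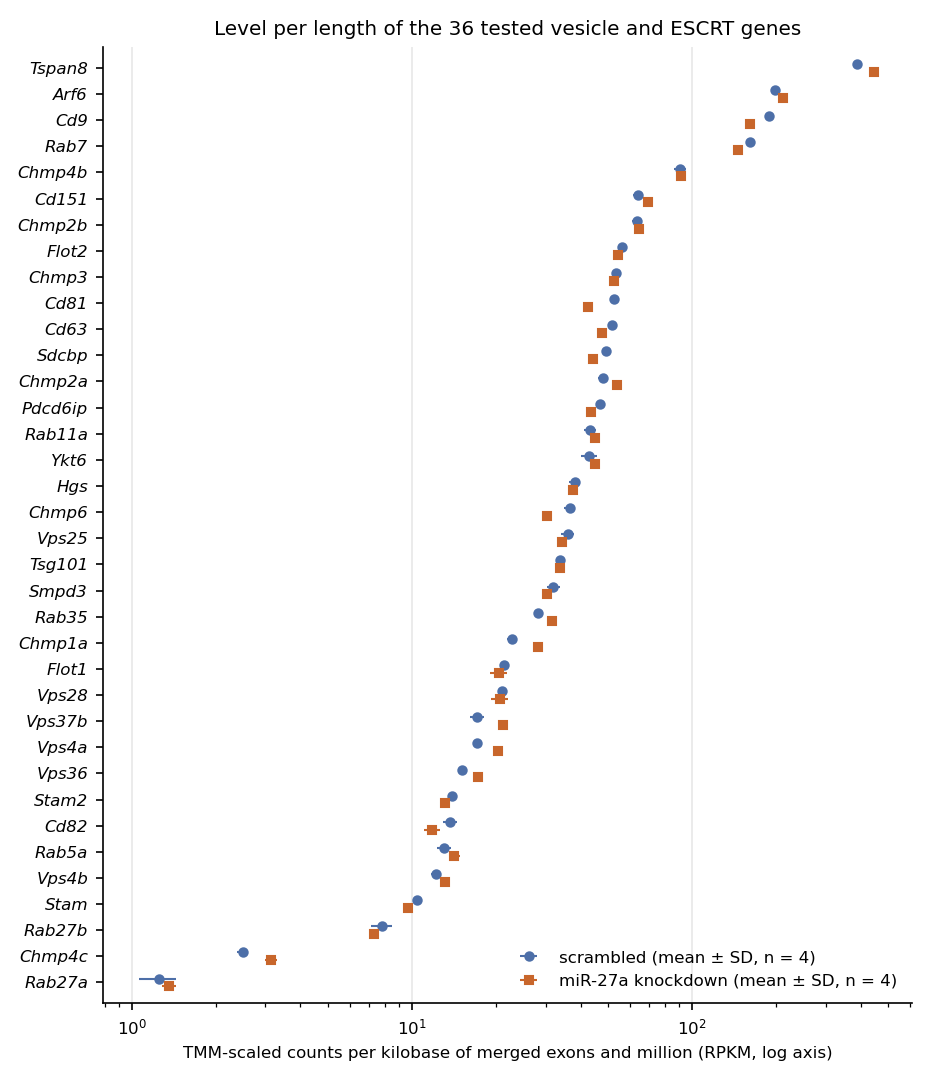
Level of the 36 tested members in RPKM (log axis), mean ± SD of 4 scrambled libraries (circles) and 4 knockdown libraries (squares), ordered by the scrambled level. Tspan8 is the highest at 389.5 in scrambled libraries and Rab27a the lowest at 1.25, and for most genes the groups lie close together on this scale.

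Whole chromosomes differed slightly between the groups, and some members moved as their chromosomes did. Chromosome 8, which also carries miR-27a, had a median log2 fold change of 0.21 over 649 tested genes, of which 62.7% were called higher and 5.39% lower. Of the 4 members on it Chmp1a (0.31), Vps4a (0.26) and Vps36 (0.18) were called higher. They differed from that median by 0.10, 0.05 and −0.02. Smpd3 (−0.08) differed from it by −0.28. On chromosome 5, with a median of 0.14, Rab35 (0.16) was close to it and Vps37b (0.30) 0.17 above. Chromosome 6 had a median of −0.11, beside Rab7 at −0.14 and Cd9 at −0.23. Chromosome 9 had one of −0.09, beside Pdcd6ip at −0.11, and chromosome 4 one of −0.05, beside Sdcbp at −0.15. Cd81 and Chmp2a share chromosome 7, whose median was −0.06, and differed from it by −0.24 and 0.23. Chmp4c (chromosome 3) and Cd82 (chromosome 2) differed from their chromosome medians by 0.31 and −0.25. Of the 32 tested members off chromosome 8, 9 were called higher and 10 lower, beside 23.8% and 24.1% of all tested genes. The part of chromosome-wide shifts in the member changes was not tested.

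**Figure D4:**
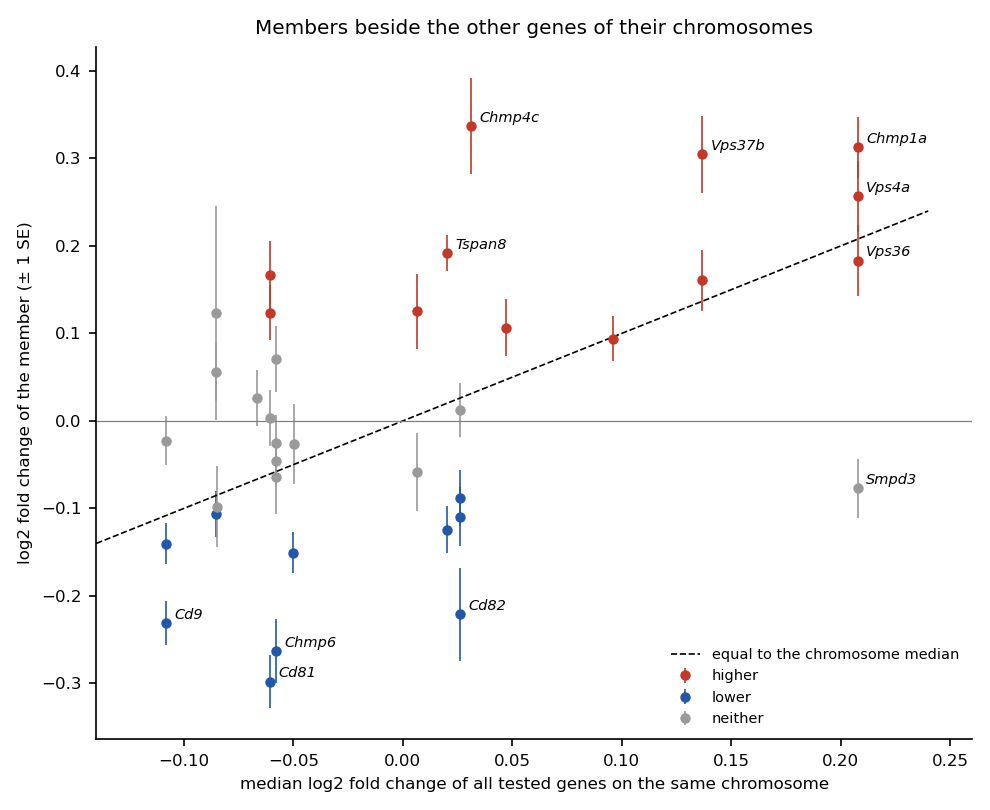
Log2 fold change of each tested member (vertical, ± 1 SE) against the median log2 fold change of all tested genes on its chromosome (horizontal), coloured by call, with the dashed line where both are equal. Chmp1a, Vps4a and Vps36 sit near the line at the chromosome 8 median of 0.21, while Chmp4c, Cd81 and Smpd3 lie far from it.

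A wider list of vesicle genes also moved both ways. Of 115 further genes 104 were tested, and 30 were called higher and 25 lower (52.9% called, beside 47.9% of all tested genes). With library totals alone the split was 38 higher and 18 lower, and with upper-quartile factors 37 and 19. Of the other tetraspanins 6 rose and 5 fell of 15 tested (73.3% called). Tspan12 rose 1.25-fold (47.0 ± 2.15 against 37.5 ± 2.2 CPM, edgeR adjusted p = 9.23e-06). Tspan13 fell 1.38-fold (20.9 ± 1.57 against 28.8 ± 0.994 CPM, edgeR adjusted p = 1.13e-06). Tspan6 stood at 4.70 ± 0.755 against 0.218 ± 0.147 CPM, near the floor in scrambled libraries, and is named after its values were seen. Among partners of tetraspanins Itgb1, the beta-1 integrin chain, rose 1.22-fold (841 ± 0.854 against 688 ± 11.6 CPM, adjusted p = 8.23e-11) and lies on chromosome 8. Igsf8, a partner of Cd9 and Cd81, fell 1.10-fold (adjusted p = 0.00566). Ptgfrn of the same class was called higher (462 ± 5.36 against 414 ± 4.31 CPM, edgeR adjusted p = 2.17e-06) and is named after its values were seen.

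In the remaining ESCRT genes, Vps37a, another form of the Vps37b subunit, rose 1.28-fold (52 ± 2.27 against 40.7 ± 1.44 CPM, adjusted p = 7.88e-07), while the ESCRT-I subunit Mvb12b fell 2.22-fold (4.31 ± 0.306 against 9.59 ± 1.45 CPM, adjusted p = 3.07e-08). Ist1, an ESCRT-III protein, rose 1.146-fold (adjusted p = 5.41e-05), and Ist1 and Vps37a both lie on chromosome 8. Of 10 regulators 1 rose, the ubiquitin ligase Nedd4 (1.06-fold), and 4 fell, among them its relative Nedd4l (1.25-fold, adjusted p = 5.15e-07). Of 19 other Rabs and Rab regulators 14 were called in neither direction, with Rab5b up 1.17-fold and Vps16, a HOPS tether subunit, down 1.09-fold.

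Among tethers, SNAREs and their partners 6 rose and 7 fell of 23 (56.5% called, beside 47.9% of all tested genes). Sytl2, a Rab27 effector that was well above the level of Sytl4, rose 1.51-fold (61.7 ± 1.39 against 40.8 ± 4.46 CPM, adjusted p = 1.02e-08). Syt7, a calcium sensor of lysosome exocytosis, fell 1.33-fold (19.3 ± 2.00 against 25.5 ± 1.80 CPM, adjusted p = 5.83e-05). Among the syndecans, heparan sulfate carriers whose tails bind syntenin, Sdc4 fell 1.35-fold (151 ± 3.97 against 204 ± 5.75 CPM, adjusted p = 2.75e-11) and Sdc3 rose 1.37-fold from a low level (11.6 ± 1.52 against 8.50 ± 0.424 CPM, adjusted p = 0.000405). Sdc1, named after its values were seen, stood at 543 ± 11.1 against 439 ± 3.79 CPM and was called higher (edgeR adjusted p = 1.23e-10). Sdc2, also named after its values were seen, was called higher at a very low level. It stood at 1.62 ± 0.0833 against 0.448 ± 0.0616 CPM (edgeR adjusted p = 2.60e-06). In the class of syndecan, lipid and actin factors 6 rose and 6 fell of 16 (75.0% called).

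**Figure D5:**
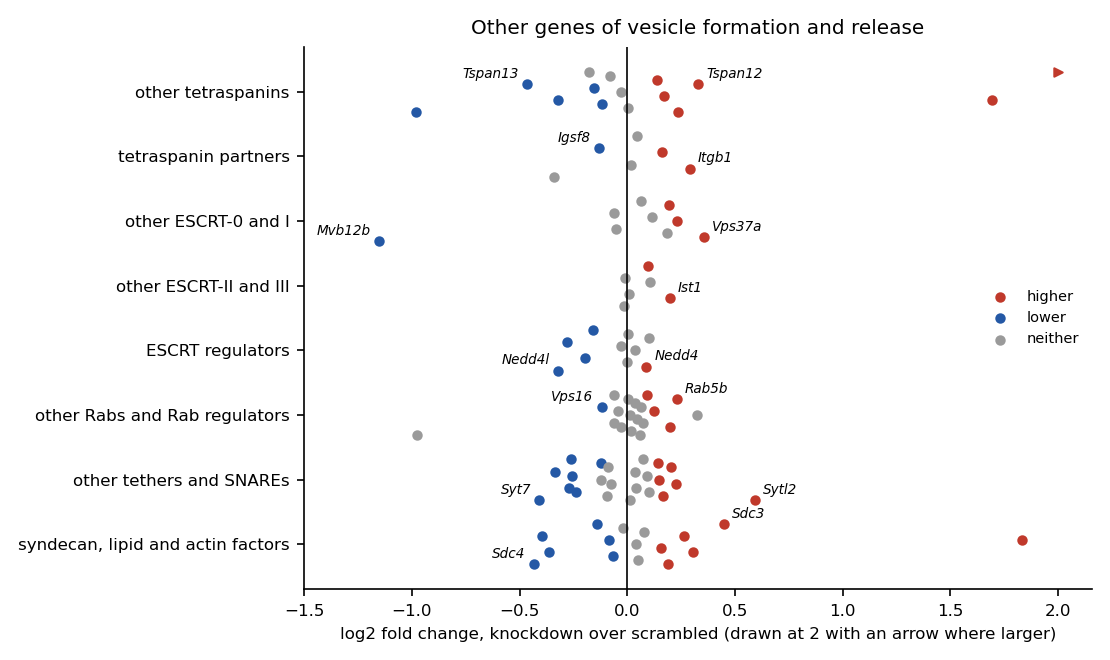
Log2 fold change, knockdown over scrambled, of the 104 tested further genes by class (points, coloured by call; vertical position within a class only separates points; the arrow at 2 is Tspan6). Most points lie within 0.5 of 0, the called points past 0.5 without a name are genes with a mean under 5 CPM, and Mvb12b, Tspan13, Sdc4 and Syt7 stand to the left and Sytl2, Sdc3 and Vps37a to the right.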

How the data were processed

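Raw read counts per gene symbol, 1 column per library and 24421 rows, were deposited by the authors. Per the submitters' processing notes the build was mm10 and the tools, named without roles, were STAR, Bowtie, bcl2fastq 2.20, R 4.2.1 and DESeq2 1.36.0. Per the labels' protocols a stranded kit and paired reads of 59 bases were used. No counter, annotation or strand mode for the counting is given in the sources used here. Exon bases are shared with some other annotated gene by 18 members, and with a protein-coding one by 9.

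The quasi-likelihood test of edgeR 4.0.16 (R 4.3.3) was run over all genes, with filterByExpr (minimum count 10, total 15), TMM factors and group as the only term. A gene was called at a Benjamini-Hochberg adjusted p under 0.05. CPM are TMM-scaled. DESeq2 1.42.0, limma 3.58.1 (voom), other scalings and filters, the replicate block and leaving out each library were alternatives. The edgeR code was also run on simulated counts in which few genes were changed by known folds. That run checks the code and not the calls in these data, where 47.9% of tested genes were called. Symbols were matched to GENCODE vM21 (23351), RefSeq (264) or older symbols (662), and 142 were unmatched. Positions are GRCm38. Members and lists were chosen with earlier results of these data known. Values per library were set for 7 vesicle genes whatever their level and for called members with a fold of at least 1.2. From the wider list, the largest called rise and fall of each class at a mean of at least 5 CPM were named. Values of other members, Tspan8, Sdcbp and the site and promoter examples among them, were added after their values were seen.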

Additional observations from a re-analysis of the deposited data

Results flagged for a closer look

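In 4 of 72 sets of 4 libraries, 36 members in 2 groups, a single library stood apart from the other 3 by more than Dixon's 95% limit; chance gives about 1 in 20. Cd151 read 201.4 CPM in knockdown replicate 2, where the others read 187.6 to 188.3 CPM, and this library adds to its rise. Rab11a read 119.8 CPM in scrambled replicate 2, with 131.6 to 133.7 CPM in the others. Ykt6 read 128.8 CPM in knockdown replicate 4, below 136.4 to 137.2 CPM. Vps28 read 47.86 CPM in scrambled replicate 4, a gap of under 1 CPM to 48.33 to 48.39 CPM that matters because the other 3 lie so close together.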

How the results depend on the processing

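Of the 22 called members 20 were called in the same direction under all 16 alternatives, and Stam2 and Rab5a were not. All 6 tetraspanins kept their direction and call throughout. The replicate numbers did not pair the libraries (correlation of same-numbered deviations −0.035 to 0.0201, and 0 of 4 scrambled libraries closest to its own number). With the replicate block 2762 genes were called higher and 2771 lower, where the fit without it called 2804 and 2841. The block gave 12 members higher and 11 lower, 2 adaptor genes lower in place of 1, and no other change in the counts of members. Without a filter 2 adaptor genes and 2 release genes were called lower in place of 1 each and 4 release genes higher in place of 3, the added one being Sytl4, and with library totals alone 5 release genes were called higher in place of 3. Leaving out each library gave 1 to 2 adaptor genes lower and 1 to 2 release genes lower, with 2 adaptor genes without scrambled replicate 2 or 4 and 2 release genes without scrambled replicate 1. Directions turned for 4 members near 0. With library totals alone the log2 fold change of Hgs was 0.0004005 and that of Chmp3 0.00295. Leaving out each library gave −0.0451 to 0.00491 for Hgs (above 0 without scrambled replicate 1), −0.0107 to 0.0182 for Tsg101 (below 0 without scrambled replicate 2, scrambled replicate 3 or knockdown replicate 4) and −0.0121 to 0.0453 for Chmp4b (below 0 without scrambled replicate 3), and the cause was not tested. Over all genes the split of 2804 higher and 2841 lower became 3337 and 2376 with library totals alone and 3188 and 2478 with upper-quartile factors. Counting 8mers alone, 2 members and not 10 had a match to the seed that miR-27a and miR-27b share. Library totals alone, the scaling without TMM factors, were added after the data were seen. Depth limits Rab27a and Sytl4.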
